A study of Mus musculus with 3 samples.

Results

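Vcan positive inflammatory monocytes were single cells among Ly6Chi monocytes sorted from injured mouse livers, chosen by the transcripts they carried. Barcodes with 500 or more genes and no more than 10% of their UMIs (unique molecular identifiers, which count captured transcript molecules) from mitochondrial transcripts were kept. A kept cell belonged to the set when it held at least 2 Vcan UMIs and at least 2 of the 4 transcripts Fpr2, Clec4e, Il1b and Mcemp1. It also had to hold 0 Prtn3 UMIs, fewer than 5 Arg1 UMIs and fewer than 15 summed UMIs of H2-Aa, H2-Ab1 and H2-Eb1 per 10000, at most 2 of the 6 patrolling transcripts Ace, Adgre4, Spn, Treml4, Ear2 and Ceacam1, and not both Gpnmb and 2 or more Lpl UMIs. These gates left 1867 of 16021 kept cells, or 11.7%. Since the gates used the measured transcripts, the levels of those 18 genes and any contrast of these cells with other cells are given as descriptions, without a test.

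The libraries came from male C57BL/6 mice aged 8 weeks. Every animal was fasted for 12 h and injected intraperitoneally with 300 mg/kg acetaminophen. Chow was given back after 2 h, and Ly6Chi monocytes were sorted 24 h after the drug, in the necro-inflammatory phase of the injury. The knockout library, numbered 4, came from LysMDCommd10 mice, in which Cre expressed from the lysozyme locus in myeloid cells removes the floxed Commd10 gene. The control libraries, numbered 1 and 3, came from Commd10fl/fl mice, which carry the floxed alleles without the deletion and received the same drug. Whether each library came from 1 mouse or from a pool is not stated, so the p-values reflect the spread among these libraries, and that spread may be technical. Uninjured liver was not analysed here.

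Ly6Chi monocytes leave the bone marrow through the receptor CCR2 and enter damaged tissue, where they give rise to macrophages. Vcan encodes versican, a chondroitin sulfate proteoglycan of the pericellular matrix that is abundant in classical monocytes. Clec4e encodes Mincle, a lectin that senses products of dead cells and microbes, Fpr2 encodes a formyl peptide receptor, Il1b a fever-inducing cytokine and Mcemp1 a membrane protein of myeloid cells. COMMD10 is a member of the COMMD protein family, which acts in endosomal sorting.

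The deposited libraries held 30302932 UMIs (knockout 4), 40092348 UMIs (control 1) and 72867668 UMIs (control 3). The Vcan positive cells contributed 3397844 UMIs in knockout 4, 2068548 UMIs in control 1 and 9968467 UMIs in control 3, with medians of 7283, 9106 and 7841 UMIs per cell in that order of libraries. No cell barcode was shared between the Vcan positive cells of any pair of libraries, and 2 to 19 barcodes were shared between pairs over all kept cells. Commd10 stood at 10.5 CPM (UMIs per 1000000 UMIs, scaled by TMM) in the Vcan positive cells of knockout 4, against 16.8 CPM in control 1 and 7.77 CPM in control 3. The knockout value lay between the controls (log2 fold change -0.05 ± 0.44, SE; edgeR adjusted p = 0.989), and since 3' tags were counted and the deleted part of the gene is not stated, this level does not check the genotype. Lyz2, whose locus carries the Cre driver, stood at 8226 CPM in knockout 4, against 18735 CPM in control 1 and 13578 CPM in control 3 (-0.97 ± 0.22, adjusted p = 0.094).

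The set made up 10.5% of kept cells in knockout 4 (468 of 4457; exact Clopper-Pearson 95% interval 9.62 to 11.4), against 5.13% in control 1 (211 of 4115; 4.47 to 5.85) and 15.9% in control 3 (1188 of 7449; 15.1 to 16.8). The knockout share therefore lay between the controls, and the difference from their mean was -0.04 percentage points, with an SD of 7.65 between the controls. The share was given no test, and the intervals cover counting error only. After each cell was thinned to 4000 UMIs the shares were 8.76% in knockout 4, 3.33% in control 1 and 15.8% in control 3, in the same order. The gates took away different cells in each library. Among cells with enough Vcan and markers (1274 in knockout 4, 777 in control 1 and 3254 in control 3), the Arg1 gate was failed by 399 cells of knockout 4, 99 of control 1 and 101 of control 3. The patrolling gate was failed by 173 cells of knockout 4, 313 of control 1 and 1262 of control 3. The share thus also depends on gates whose own genes differed between libraries.

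**Figure D1:**
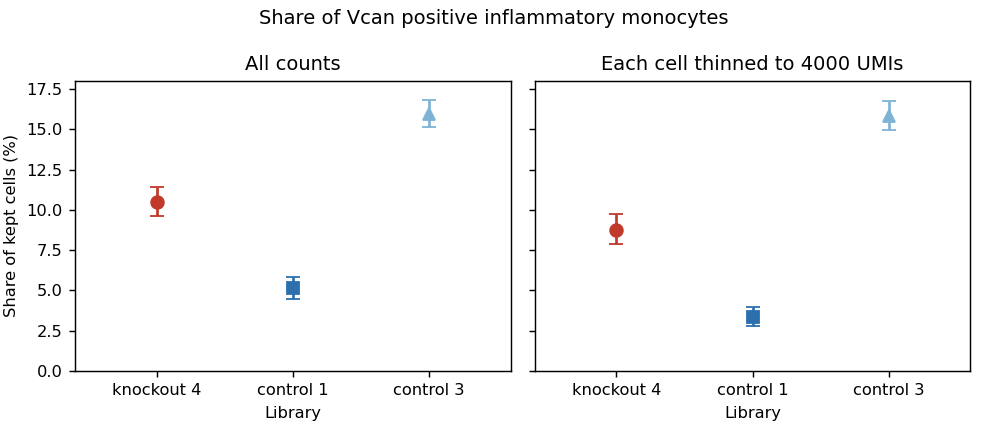
Share of kept cells (%, y axis) that were Vcan positive inflammatory monocytes in each library, at the deposited depth (left) and after thinning each cell to 4000 UMIs (right). Bars are exact 95% intervals for counting error. In both panels knockout 4 lies between the control libraries.

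The cells carried the markers of classical monocytes. The summed level of 7 classical monocyte genes (Ly6c2, Ccr2, F13a1, Chil3, Plac8, Fn1 and Csf1r) was 11220 CPM in the Vcan positive cells of knockout 4, 9349 CPM in those of control 1 and 11870 CPM in those of control 3, against 9457, 7387 and 9672 CPM in the other cells of the same libraries. Within this list Ly6c2, Ccr2, F13a1 and Chil3 were higher in the Vcan positive cells of every library. Plac8 was not higher in control 3 (log2 ratio over the other cells -0.05), and Fn1 was not in knockout 4 (-0.08). Of the 6 genes given as markers of the set, Gpr132, a G protein-coupled receptor, was the only one not used by the gates. It stood at 52.5 CPM in knockout 4, 42.1 CPM in control 1 and 49.9 CPM in control 3. Over the other cells of its library it was higher by 0.70 log2 units in knockout 4, by 0.51 in control 1 and by 0.19 in control 3. Of 9 neutrophil genes, 5 had UMIs in the Vcan positive cells of every library, and Ly6g, Retnlg, Camp and Ngp had 0. The 9 summed to 313 CPM in the Vcan positive cells and 204 CPM in the other cells of knockout 4, to 253 and 179 CPM in control 1 and to 361 and 257 CPM in control 3, so the sum was higher in the Vcan positive cells of each library. Kupffer cell markers summed to 2.06 CPM in knockout 4, 1.45 CPM in control 1 and 0.80 CPM in control 3, and T cell markers to 0.29, 0.48 and 0.40 CPM. Hepatocyte transcripts summed to 180 CPM in the Vcan positive cells and 175 CPM in the other cells of knockout 4. They summed to 127 and 128 CPM in control 1 and to 239 and 231 CPM in control 3, so the sums were close in both sets of cells of each library.

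Among the transcripts used for the choice, Vcan stood at 788 CPM in knockout 4, against 471 CPM in control 1 and 780 CPM in control 3. Clec4e stood at 636 CPM in knockout 4, against 357 and 611 CPM in controls 1 and 3, and Mcemp1 at 245 CPM, against 161 and 266 CPM. For Il1b the levels were 773 CPM in knockout 4 and 568 and 817 CPM in controls 1 and 3, and for Fpr2 they were 39.7 CPM and 22.0 and 66.3 CPM. Control 1 was the lowest library for each of these 5 genes. Vcan, Clec4e and Mcemp1 were higher in the set than in the other cells of every library. Fpr2 was not, with log2 ratios of 0.60 in knockout 4, -0.14 in control 1 and 0.40 in control 3. Il1b had ratios of 0.46, 0.26 and 0.40 in the same order. Il1b transcripts were found in 63.7% of the set in knockout 4, 66.4% in control 1 and 70.0% in control 3. Lymphocytes carried along in the sort, which should lack Il1b, had it in 25.0%, 30.3% and 17.2% of 16, 33 and 29 cells at median depths of 2634, 3084 and 2843 UMIs. Clec4e was found in 92.5%, 88.2% and 89.8% of the set, against 18.8%, 21.2% and 20.7% of lymphocytes in the same order. Both genes were used to choose the cells, so these shares describe the choice.

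Values on either side of the thresholds are given without a test. The classes are cut on Vcan UMIs or on the 4 markers. The gaps in Vcan therefore follow from the rule, and those in Il1b largely do. In unscaled CPM, Vcan stood at 310 in cells with exactly 2 Vcan UMIs, against 154 in cells with exactly 1 that passed every other gate, in knockout 4. The same values were 232 and 115 in control 1 and 256 and 141 in control 3. Il1b stood at 400 CPM in cells with 2 of the 4 markers, against 81.4 CPM in cells with 1 of the 4, in knockout 4, at 398 and 92.5 CPM in control 1 and at 475 and 86.2 CPM in control 3. The share of the set with all 4 markers was 7.91% in knockout 4, 4.27% in control 1 and 16.5% in control 3.

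Cd14, Trem1 and Fpr1, chosen after their values were seen among transcripts that the gates did not use, were higher with each added marker in every library, and Ptgs2, Ccl2 and Ccl7 were not. Cd14, the endotoxin co-receptor, stood at 1023, 1256 and 1539 CPM in knockout 4 cells with 2, 3 and 4 markers, at 388, 589 and 899 CPM in control 1 and at 581, 726 and 954 CPM in control 3. Trem1, which encodes an amplifying receptor of myeloid cells, stood at 43.3, 61.4 and 88.4 CPM in knockout 4, at 15.2, 27.3 and 86.0 CPM in control 1 and at 16.6, 27.6 and 40.5 CPM in control 3, in the same order of markers. Fpr1 stood at 9.32, 12.3 and 40.5 CPM in knockout 4, at 3.57, 5.94 and 76.5 CPM in control 1 and at 6.16, 16.0 and 31.3 CPM in control 3. Ptgs2, the inducible cyclooxygenase, did not keep this order: in control 1 it stood at 111, 173 and 57.4 CPM. Ccl2 ran down with added markers in control 1 at 886, 845 and 727 CPM, and Ccl7 stood at 207, 318 and 11.1 CPM in knockout 4. The control 1 group with 4 markers held only 9 cells. Fpr1 was low over the whole set, at 13.2 scaled CPM in knockout 4, 8.18 in control 1 and 15.6 in control 3. Its steps in control 1 thus rest on few UMIs.

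Ly6c2 and F13a1, chosen after their values were seen, were highest in cells with 5 or more Vcan UMIs in every library, and Chil3 was not. Ly6c2, which encodes the antigen of the sort, stood at 680 CPM in knockout 4 cells with 2 Vcan UMIs, 736 CPM with 3 to 4 and 1053 CPM with 5 or more. In the same order of classes it stood at 521, 781 and 1076 CPM in control 1 and at 640, 673 and 887 CPM in control 3. F13a1, a transglutaminase subunit of clotting, stood at 764, 761 and 1121 CPM in knockout 4, at 605, 747 and 988 CPM in control 1 and at 697, 815 and 1077 CPM in control 3. Chil3, a chitinase-like protein of classical monocytes, stood at 4400, 4319 and 3811 CPM in knockout 4, at 2962, 2546 and 2695 CPM in control 1 and at 4591, 4623 and 4746 CPM in control 3. Cd74, the invariant chain of MHC class II, ran the other way from Ly6c2 in knockout 4 with 537, 388 and 226 CPM and in control 3 with 877, 592 and 378 CPM. In control 1 it stood at 301, 311 and 150 CPM, so only the highest Vcan class was lower. Cells with 5 or more Vcan UMIs were also the deepest class in each library (medians of 7710, 9648 and 8193 UMIs), and the part of depth in these patterns was not tested.

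Against the other kept cells, more genes were over 2-fold lower in the set than over 2-fold higher. Of 3099 genes at 50 CPM or more, 0 (0.0%) were over 2-fold higher in every library and 10 (0.323%) were over 2-fold lower. Without control 3, which held most of the cells, 5 genes were over 2-fold higher and 16 over 2-fold lower in both remaining libraries. Lrg1, which encodes a secreted glycoprotein, had a mean log2 ratio of 1.11, with 106 CPM in the Vcan positive cells and 42.3 CPM in the other cells of knockout 4. It had 38.5 and 15.2 CPM in control 1 and 62.5 and 37.3 CPM in control 3. The iron-sequestering lipocalin Lcn2 (0.97), the antiproteinase-like Wfdc21 (0.94), the matrix protein gene Thbs1 (0.87), the alarmin S100a8 (0.85), the collagenase Mmp8 (0.85) and the acute-phase gene Saa3 (0.82) followed in this order. Ptgs2 (0.80), the phospholipase gene Plcb1 (0.79), the glutathione transferase Mgst1 (0.77) and haptoglobin, Hp (0.75), were also among the highest 12. S100a8 stood apart in 2 of the 3 libraries, with ratios of 1.39 in knockout 4, 1.08 in control 1 and 0.09 in control 3.

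The lowest genes were those of macrophages and other cells. Cd74 stood at 337 CPM in the Vcan positive cells and 2291 CPM in the other cells of knockout 4, at 242 and 1727 CPM in control 1 and at 532 and 2623 CPM in control 3, a mean log2 ratio of -2.63. It sits in the MHC class II pathway that the gates cut on. Igkc, an immunoglobulin chain (-3.72), the eotaxin Ccl24 (-2.36), the dead-cell receptor Axl (-2.24), the platelet factor Pf4 (-2.19), the complement gene C1qa (-1.49), the scavenger receptor Cd36 (-1.38) and Frmd4b (-1.33) were the others among the lowest 8. Over gene lists, 14 of 18 Ly6Chi monocyte identity genes were higher in the set in every library and 0 were lower, with a median ratio of 0.46 on the log2 scale. Of 14 macrophage maturation genes 1 was higher and 11 were lower in every library (median -0.65), against 1311 higher and 568 lower of all 3099 genes (median 0.05).

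In Vcan positive cells of the knockout library, the neutrophil-attracting chemokine gene Cxcl3, the interferon-inducible membrane protein gene Ifitm1 and 6 genes of the hypoxia and glucose uptake lists rose, and the chemokine receptor gene Cx3cr1 fell. Of 10037 genes tested, 32 were higher (0.319%) and 10 were lower (0.0996%) in knockout 4 (edgeR quasi-likelihood test, adjusted p under 0.05), and 755 genes (7.52%) had an unadjusted p under 0.05. All 42 lay outside both controls in the direction of the call, which the choice of genes by this test largely sets. On the log2 scale the fold changes were 0.90 to 3.53 for those that rose and -2.59 to -1.09 for those that fell. Of all genes tested, 35.2% were above both controls and 35.4% below both. DESeq2 called 15 of 11156 genes (0.134%), 13 higher and 2 lower. The spread came from 2 control libraries alone, with 1 residual degree of freedom, so the lone knockout library is assumed to vary as they do.

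**Figure D2:**
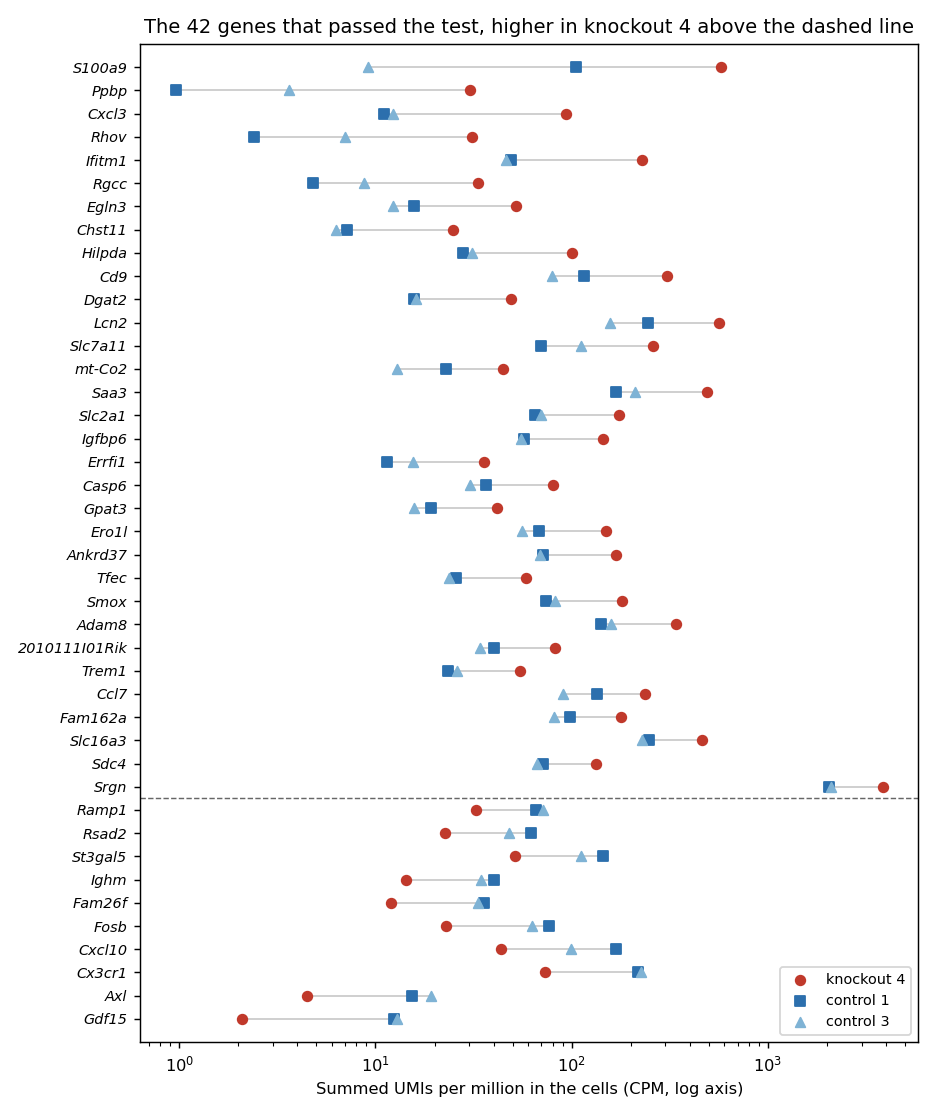
Level in the Vcan positive cells of each library (CPM, log axis) for the 42 genes that passed the test, sorted by log2 fold change of knockout 4 over the controls. Circles are knockout 4, squares control 1 and triangles control 3, and genes under the dashed line were lower in knockout 4. No circle lies between the control symbols, which the choice of these genes by the test largely sets. The controls lie far apart for S100a9.

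Cxcl3 (chromosome 5, 90786103 to 90789600, GRCm38, plus strand) stood at 94.0 CPM in knockout 4, against 11.01 CPM in control 1 and 12.3 CPM in control 3. The knockout library was several-fold above both controls, which were close together (2.98 ± 0.22, adjusted p = 1.0e-05). Its 315 UMIs in knockout 4 came from 45 of 468 cells (9.62%), and 46.4% of them from 5 cells. In control 1 it was found in 3.32% and in control 3 in 3.45% of the set. Lymphocytes had 0 Cxcl3 UMIs in every library, which allows shares of up to 18.8% in knockout 4, 9.09% in control 1 and 10.3% in control 3. Ppbp, a platelet chemokine gene on the same chromosome (90768518 to 90770063), stood at 30.4 CPM in knockout 4, against 0.96 and 3.63 CPM in controls 1 and 3 (3.34 ± 0.39, adjusted p = 0.00132). A single cell of knockout 4 held 83 of its 102 UMIs (81.4%), and without that cell the level was 5.67 CPM. With 3 of the 4 markers required, Ppbp did not pass (1.14, adjusted p = 0.858), and it passed under 10 of 11 settings with a test. Platelet markers, a list of 6 genes that holds Ppbp and Pf4, summed to 97.4 CPM (unscaled) in the set of knockout 4, against 25.1 CPM in control 1 and 56.8 CPM in control 3, and their part in the Ppbp value was not tested.

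Of the other chemokine genes, Ccl7, a ligand of CCR2, stood at 237 CPM in knockout 4, against 135 CPM in control 1 and 90.0 CPM in control 3 (1.10 ± 0.22, adjusted p = 0.0486). Ccl7 passed under only 4 of 12 settings with a test, with edgeR or DESeq2 adjusted p up to 0.435. It was found in 13.9% of the set in knockout 4, 15.2% in control 1 and 11.9% in control 3, against 6.25%, 21.2% and 6.90% of lymphocytes, so in control 1 the share was not above that of lymphocytes. In knockout 4, 5 cells held 52.9% of its UMIs, and in control 1, 5 cells held 73.3%. Cxcl10, a T cell chemokine induced by interferons, stood at 43.6 CPM in knockout 4, against 169 and 99.4 CPM in controls 1 and 3 (-1.60 ± 0.29, adjusted p = 0.0266). A single cell of control 1 held 42.8% of its Cxcl10 UMIs, and without that cell the control stood at 96.8 CPM. Cxcl10 passed under 6 of 12 settings. Cxcl9, a related gene, had 0 UMIs in knockout 4 and in control 1 and 222 UMIs in control 3. Of 20 chemokine and cytokine genes tested, 3 rose (Ppbp, Cxcl3 and Ccl7) and 1 fell (Cxcl10), and the median was 0.19, against -0.01 over all genes tested. Cxcl2 stood at 1463 CPM in knockout 4, against 1065 and 841 CPM (0.62, adjusted p = 0.358), and Ccl2 at 971 CPM, against 853 and 431 CPM (0.60, adjusted p = 0.662). Neither passed the test, although both lay above each control.

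Hilpda, Egln3, Ankrd37 and Ero1l of the hypoxia list and Slc2a1 and Slc16a3 of the glycolysis and glucose uptake list rose in the knockout library. Hypoxia-inducible factors, which are marked for decay by the prolyl hydroxylases EGLN1 and EGLN3 when oxygen is ample, bind promoters through a short ACGTG core. Of 16 hypoxia genes tested, 4 rose and 0 fell, 15 lay above both controls, and the median fold change was 0.87. Of 18 glycolysis and glucose uptake genes, 2 rose and 0 fell, 16 lay above both controls, and the median was 0.57. The medians were 0.86 and 0.47 against control 1 alone, and 0.94 and 0.73 against control 3 alone. Over all 10037 genes tested, 0.319% rose, 35.2% lay above both controls and the median was -0.01.

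Promoter windows of the 6 genes of these lists that rose are shown for 4 of them, since the genes moved together. Each window runs from 250 bases before to 50 bases after a RefSeq transcription start, 300 bases in all on the GRCm38.p6 build, written 5' to 3' on the gene's strand. Capitals mark ACGTG or its reverse complement CACGT, searched on both strands. The windows lie at chr4:119108495-119108794 on the plus strand for Slc2a1, chr11:120948817-120949116 on the plus strand for Slc16a3, chr6:29272376-29272675 on the plus strand for Hilpda and chr12:54203825-54204124 on the minus strand for Egln3.
Slc2a1: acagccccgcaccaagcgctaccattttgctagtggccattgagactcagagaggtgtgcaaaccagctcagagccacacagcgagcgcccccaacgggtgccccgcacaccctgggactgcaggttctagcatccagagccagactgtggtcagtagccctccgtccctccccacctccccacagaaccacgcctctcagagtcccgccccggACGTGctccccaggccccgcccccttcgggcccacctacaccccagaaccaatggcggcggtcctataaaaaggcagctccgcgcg
Slc16a3: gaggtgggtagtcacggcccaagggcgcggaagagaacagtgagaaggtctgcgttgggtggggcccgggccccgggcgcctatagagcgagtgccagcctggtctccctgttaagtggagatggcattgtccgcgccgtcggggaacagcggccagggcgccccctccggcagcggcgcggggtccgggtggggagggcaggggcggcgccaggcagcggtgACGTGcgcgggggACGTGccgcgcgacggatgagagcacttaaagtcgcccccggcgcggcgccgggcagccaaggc
Hilpda: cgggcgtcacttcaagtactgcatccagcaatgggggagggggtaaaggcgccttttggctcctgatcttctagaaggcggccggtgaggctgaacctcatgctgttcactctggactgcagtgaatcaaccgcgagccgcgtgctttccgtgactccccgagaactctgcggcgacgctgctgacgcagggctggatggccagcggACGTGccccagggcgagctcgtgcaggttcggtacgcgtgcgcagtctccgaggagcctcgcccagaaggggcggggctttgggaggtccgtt
Egln3: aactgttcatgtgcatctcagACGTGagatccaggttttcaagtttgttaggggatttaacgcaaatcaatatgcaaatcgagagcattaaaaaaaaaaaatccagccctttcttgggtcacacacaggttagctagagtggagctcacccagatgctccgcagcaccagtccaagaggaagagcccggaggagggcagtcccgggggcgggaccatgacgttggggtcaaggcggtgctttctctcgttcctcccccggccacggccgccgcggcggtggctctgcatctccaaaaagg

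The core starts at position 215 of the Slc2a1 window, at positions 224 and 237 for Slc16a3, 208 for Hilpda and 22 for Egln3, counted from 1 at the 5' end. A second Hilpda window, from an earlier start, holds 0 matches. Ankrd37 has matches at 10 and 245, and Ero1l, listed in RefSeq as Ero1a, at 188. All 6 genes thus hold the core in at least 1 window, as do 18 of the 26 matched genes of the 2 lists that did not rise. Counted by window, 19.6% of all 32851 promoter windows hold it. These windows belong to 27025 gene symbols, so this is not a share of genes and is not on the same scale. CACGT and ACGTG overlap where the palindrome CACGTG stands. These are matches of letters and not measured binding.

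Hilpda, a lipid droplet protein that blocks fat breakdown (chromosome 6, 29272488 to 29275446), stood at 100 CPM in knockout 4, against 27.8 CPM in control 1 and 31.2 CPM in control 3 (1.74 ± 0.20, adjusted p = 0.00122). Egln3 (chromosome 12, 54178981 to 54203860) stood at 52.2 CPM in knockout 4, against 15.8 and 12.2 CPM in controls 1 and 3 (1.96 ± 0.25, adjusted p = 0.00241). In both genes the controls were close together and the knockout library stood apart. Slc2a1, the glucose transporter GLUT1 (chromosome 4, 119108711 to 119137983), stood at 174 CPM in knockout 4, against 65.1 and 69.6 CPM (1.37 ± 0.19, adjusted p = 0.00382). Ankrd37 stood at 169 CPM in knockout 4, against 71.4 and 69.1 CPM (1.27 ± 0.19), and Ero1l, an oxidase of the endoplasmic reticulum, at 149 CPM, against 68.5 and 55.5 CPM (1.28 ± 0.20). Slc16a3, which exports lactate, stood at 463 CPM in knockout 4, against 249 CPM in control 1 and 227 CPM in control 3 (0.96 ± 0.18, adjusted p = 0.0339), and passed under 7 of 12 settings with a test. These UMIs were spread over many cells: no single cell of knockout 4 held over 10% of the UMIs of any of the 6 genes.

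Other genes of both lists did not pass. Pfkfb3, which makes an activator of phosphofructokinase, stood at 48.4 CPM in knockout 4, against 10.1 and 22.8 CPM in controls 1 and 3 (1.40, adjusted p = 0.079). Pgam1 stood at 1121 CPM, against 736 and 623 CPM (0.72, adjusted p = 0.171), and Bnip3, a receptor for the removal of mitochondria, at 128 CPM, against 73.8 and 43.9 CPM (1.17, adjusted p = 0.0614). Eno1 at 732 CPM lay between 770 CPM in control 1 and 505 CPM in control 3.

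**Figure D3:**
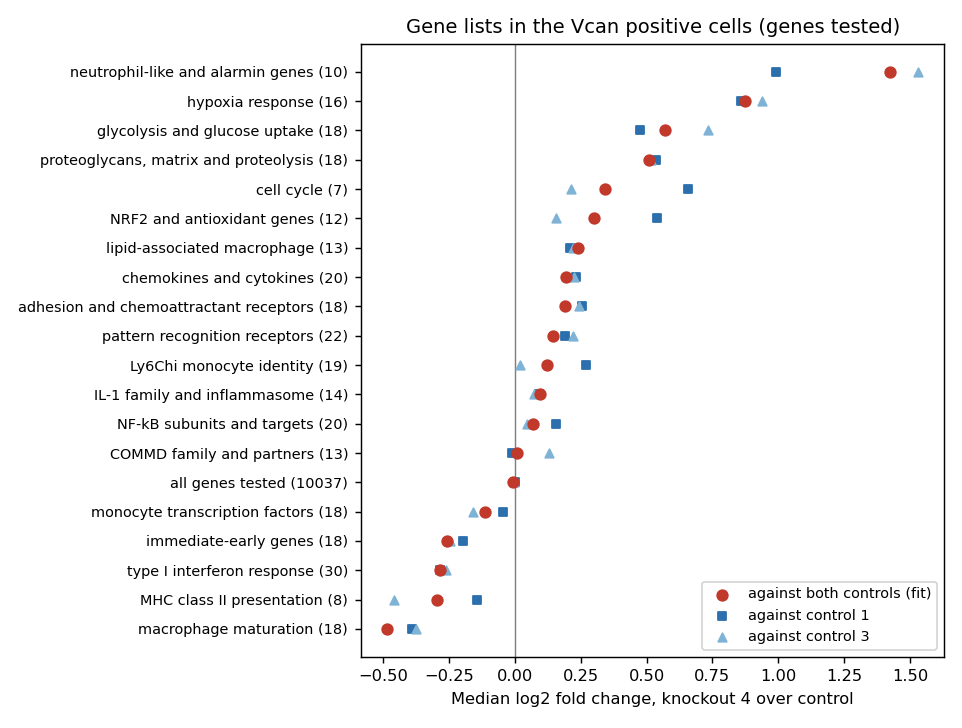
Median log2 fold change of knockout 4 over the controls in the Vcan positive cells (x axis) for 19 gene lists and all genes tested, with the number of genes tested in brackets. Circles use both controls and squares and triangles use control 1 or control 3 alone. The hypoxia and glycolysis medians are above 0.4 against either control, and the macrophage maturation and type I interferon medians are below 0 against either.

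Of 10 neutrophil-like and alarmin genes tested, Ifitm1, Saa3, Lcn2 and S100a9 rose and 0 fell, and for S100a9 the controls differed from each other. The median fold change of the list was 1.42, with 0.99 against control 1 alone, 1.53 against control 3 alone and 0.68 without the cells with 2 or more S100a8 UMIs. Ifitm1 (chromosome 7, 140967221 to 140969825) stood at 228 CPM in knockout 4, against 49.3 CPM in control 1 and 46.2 CPM in control 3 (2.26 ± 0.19, adjusted p = 3.1e-05). Saa3 stood at 491 CPM in knockout 4, against 169 and 209 CPM in controls 1 and 3 (1.37 ± 0.19, adjusted p = 0.00382), and Lcn2 at 560 CPM, against 244 and 157 CPM (1.498 ± 0.23, adjusted p = 0.00623). In each of these 3 genes the summed level of both controls was well below that of the knockout library. Ifitm1 was found in 44.2% of the set in knockout 4, against 19.4% in control 1 and 15.2% in control 3. Saa3 was found in 34.4%, against 17.1% and 19.3%. Lcn2 was found in 58.1% in knockout 4, against 59.7% in control 1 and 43.2% in control 3, so its share was not above that of control 1. S100a9, a partner of S100a8 in calprotectin, stood at 579 CPM in knockout 4, against 106 CPM in control 1 and 9.19 CPM in control 3 (3.53 ± 0.71, adjusted p = 0.046). Single cells held 33.9% of its UMIs in knockout 4 and 68.3% in control 1, and it passed under 5 of 12 settings with a test. Its adjusted p was 0.999 with DESeq2 and 0.9 with robust moderation, and its fold change was 5.96 against control 3 alone and 2.45 against control 1 alone. Neutrophil markers, a list of 9 genes, summed to 313 CPM (unscaled) in the set of knockout 4, against 253 CPM in control 1 and 361 CPM in control 3, with Ly6g, Retnlg, Camp and Ngp at 0. S100a8 stood at 2821 CPM in knockout 4, against 1030 and 253 CPM (2.15, adjusted p = 0.0618), and did not pass.

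The share of the set with 2 or more S100a8 UMIs was 56.0% in knockout 4, against 53.1% in control 1 and 19.9% in control 3. Knockout 4 and control 1 were thus close and control 3 stood apart. At least 1 S100a8 UMI was found in 71.8%, 68.7% and 34.8% of the set and in 31.2%, 18.2% and 13.8% of lymphocytes in knockout 4, control 1 and control 3. The test was repeated without the cells with 2 or more S100a8 UMIs. Then 206 cells remained in knockout 4, 99 in control 1 and 952 in control 3, and of 8522 genes tested 49 were higher and 23 lower (0.845% called). Of the 42 genes, 42 kept their sign and 31 passed. The remaining cells are part of those behind the 42 calls, so the kept signs were largely set in advance. Lcn2 stood at 148 CPM in knockout 4, against 97.2 and 93.9 CPM, and no longer passed (0.63, adjusted p = 0.282). Saa3 stood at 243 CPM, against 149 and 147 CPM (0.72, adjusted p = 0.128). Ifitm1, Cxcl3 and Hilpda passed, at 1.90, 3.28 and 1.71 on the log2 scale.

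**Figure D4:**
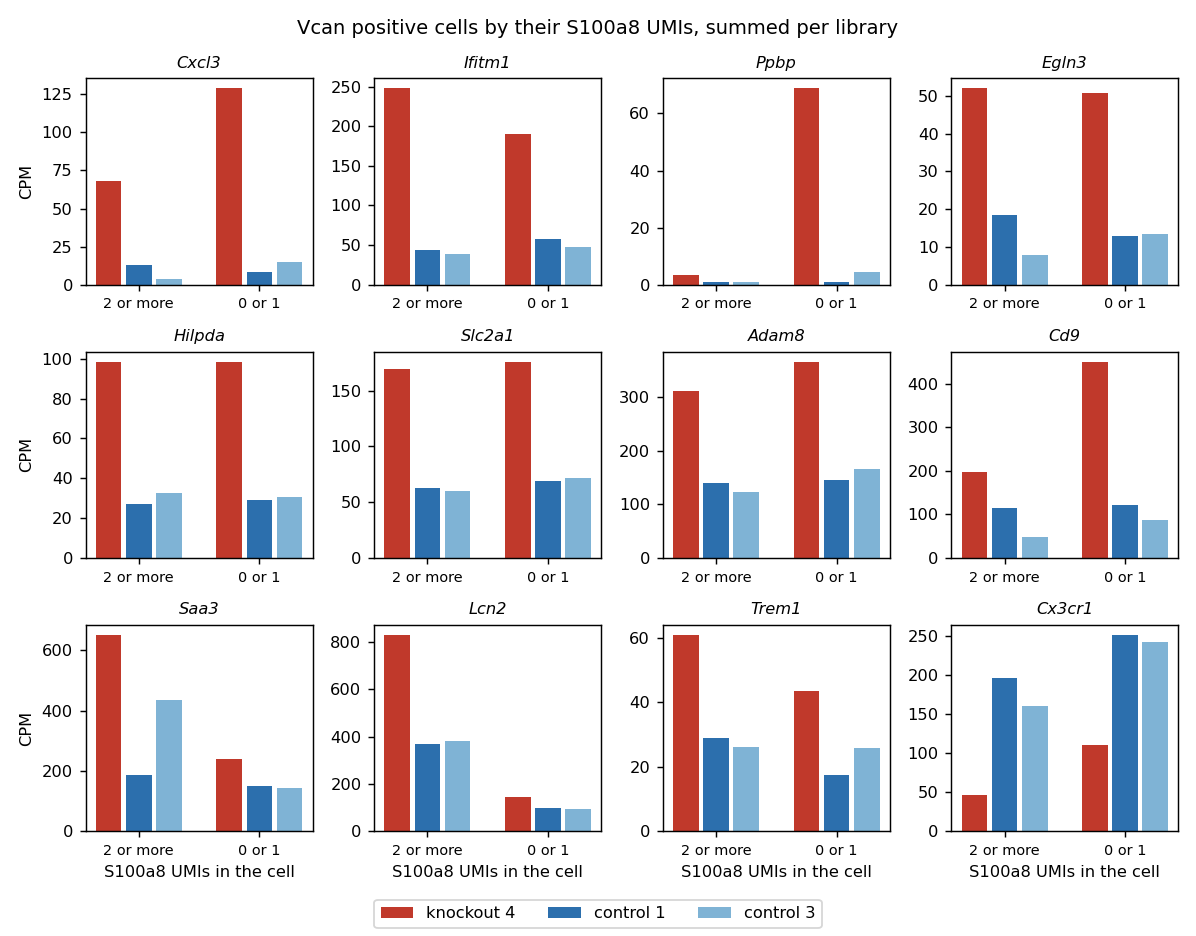
Unscaled CPM (y axis, each panel from 0) in Vcan positive cells with 2 or more S100a8 UMIs and with 0 or 1, for 12 of the genes that passed, summed per library. Bars are knockout 4, control 1 and control 3 from left to right. Hilpda and Slc2a1 have nearly the same levels in both classes, Lcn2 and Saa3 are higher in the class with 2 or more, and Ppbp is high only in knockout 4 cells with 0 or 1 S100a8 UMIs.

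Genes of proteoglycans, matrix and proteolysis also contained calls. Of 18 tested, 3 rose and 0 fell, with a median of 0.51 and 13 above both controls. Of all genes tested, 35.2% lay above both controls. Srgn, the core protein of the intracellular proteoglycan serglycin, stood at 3863 CPM in knockout 4, against 2048 CPM in control 1 and 2085 CPM in control 3 (0.90 ± 0.18, adjusted p = 0.045). Adam8, a membrane protease, stood at 339 CPM in knockout 4, against 141 and 158 CPM (1.18 ± 0.18, adjusted p = 0.00768), and the syndecan Sdc4 at 133 CPM, against 71.4 and 66.6 CPM (0.95 ± 0.19, adjusted p = 0.046). Sdc4 passed under 4 of 12 settings with a test, with adjusted p up to 0.873, and Srgn under 7 of 12. The controls were close together for all 3. Chst11, which adds sulfate to chondroitin chains such as those on versican, was not on the list and stood at 24.8 CPM in knockout 4, against 7.18 and 6.26 CPM (1.92 ± 0.31, adjusted p = 0.0106).

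Further genes that rose serve lipid handling, redox balance and signalling. The tetraspanin Cd9 stood at 305 CPM in knockout 4, against 116 CPM in control 1 and 79.4 CPM in control 3 (1.67 ± 0.22, adjusted p = 0.00241), the 1 call among 13 lipid-associated macrophage genes, whose median was 0.24. Dgat2, which makes triglycerides, stood at 49.3 CPM in knockout 4, against 15.8 and 16.1 CPM (1.62 ± 0.23). Slc7a11, the cystine importer, stood at 260 CPM in knockout 4, against 69.9 and 112 CPM (1.48 ± 0.23). It was the 1 call among 12 NRF2 and antioxidant genes, of which 11 lay above both controls (median 0.30). Over all genes tested, 35.2% lay above both controls. Hmox1, heme oxygenase 1, stood at 2459 CPM, against 761 and 1347 CPM, and did not pass (1.22, adjusted p = 0.0527). Trem1 stood at 54.6 CPM in knockout 4, against 23.5 and 26.1 CPM (1.12 ± 0.22, adjusted p = 0.0425), the 1 call among 22 pattern recognition receptors (median 0.15). It passed under 4 of 12 settings with a test, with an adjusted p of 0.999 with DESeq2 and 0.246 without the cells with 2 or more S100a8 UMIs. Cd14 stood at 1170 CPM, against 491 and 718 CPM, and did not pass (0.95, adjusted p = 0.088).

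The small GTPase gene Rhov stood at 31.1 CPM in knockout 4, against 2.40 CPM in control 1 and 6.97 CPM in control 3 (2.45 ± 0.37). Rgcc, a cell cycle regulator, stood at 33.4 CPM in knockout 4, against 4.79 and 8.78 CPM (2.14 ± 0.32). Both were low in every library, with 5 Rhov and 10 Rgcc UMIs in control 1. The mitochondrially encoded mt-Co2 stood at 44.8 CPM in knockout 4, against 23.0 and 12.9 CPM (1.45 ± 0.29, adjusted p = 0.04997), and passed under 3 of 12 settings with a test (DESeq2 adjusted p = 0.999). The median mitochondrial share of UMIs per cell was 0.98% in knockout 4, 0.95% in control 1 and 0.99% in control 3.

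Among the genes that fell, Cx3cr1, the fractalkine receptor whose level rises as monocytes mature (chromosome 9, 119901616 to 120069879), stood at 73.4 CPM in knockout 4, against 218 CPM in control 1 and 226 CPM in control 3 (-1.60 ± 0.21, adjusted p = 0.00241). It was found in 20.3% of the set in knockout 4, 57.3% in control 1 and 58.4% in control 3, and in 0, 39.4% and 17.2% of lymphocytes, some of which express it. Markers of patrolling monocytes, a list of 8 genes of which 6 were gated on, summed to 514 CPM (unscaled) in the set of knockout 4, against 685 CPM in control 1 and 592 CPM in control 3, and their part in the Cx3cr1 value was not tested. Axl stood at 4.48 CPM in knockout 4, against 15.3 and 19.1 CPM (-1.98 ± 0.39, adjusted p = 0.045), and passed under 5 of 12 settings with a test. Both belong to the macrophage maturation list, in which 0 of 18 genes rose, 2 fell and 11 lay below both controls (median -0.48). Of all genes tested, 35.4% lay below both controls. Apoe stood at 1739 CPM in knockout 4, against 2214 CPM in control 1 and 4318 CPM in control 3, and did not pass (-0.91, adjusted p = 0.404).

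Gdf15, a stress cytokine, stood at 2.09 CPM in knockout 4, against 12.4 CPM in control 1 and 12.8 CPM in control 3 (-2.59 ± 0.49, adjusted p = 0.0339), on 7, 26 and 127 UMIs. It passed under 4 of 11 settings with a test, and its DESeq2 adjusted p was 0.999. The AP-1 subunit gene Fosb stood at 23.0 CPM, against 76.6 and 62.8 CPM (-1.58 ± 0.24, adjusted p = 0.0067), and was the 1 call among 18 immediate-early genes (median -0.26). Fam26f stood at 11.9 CPM, against 35.9 and 33.2 CPM (-1.52 ± 0.28), and passed under 6 of 12 settings. Over all genes tested, 35.4% lay below both controls. In the type I interferon list 0 of 30 genes rose and 1 fell, while 21 lay below both controls (median -0.28). The gene that fell was Rsad2, the antiviral enzyme viperin, at 22.7 CPM in knockout 4, against 62.3 and 48.0 CPM (-1.25 ± 0.25, adjusted p = 0.0465). A single cell held 52 of its 130 UMIs in control 1, and 1 cell held 26.7% of them in control 3. Rsad2 passed under 7 of 12 settings with a test, and its adjusted p was 0.933 with DESeq2 and 0.621 without cells of high UMI count.

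The remaining lists held 0 calls. Among 19 Ly6Chi identity genes the median was 0.12, with 0.27 against control 1 and 0.02 against control 3, and Ccr2 stood at 944 CPM in knockout 4, against 993 and 1108 CPM. Thbs1 stood highest above the controls in that list, at 1467 CPM, against 435 and 915 CPM, and did not pass (1.11, adjusted p = 0.18). Medians were 0.10 for 14 genes of the IL-1 family and inflammasome, 0.07 for 20 NF-kB subunits and targets, 0.19 for 18 adhesion and chemoattractant receptors, -0.11 for 18 monocyte transcription factors, -0.30 for 8 MHC class II genes, 0.34 for 7 cell cycle genes and 0.01 for 13 COMMD family genes and partners. The medians of the identity, IL-1, NF-kB, cell cycle and COMMD lists changed sign under at least 1 alternative. For NF-kB they ran from -0.03 to 0.16 and for the IL-1 list from -0.04 to 0.11.

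The same test was run on the 14154 other kept cells. They come from the same 3 libraries, controls included, so the comparisons are not independent and their values are set side by side. In the other cells 21 of 14774 genes passed (0.142%). On the log2 scale Cxcl3 rose by 2.98 in the Vcan positive cells and by 4.60 ± 0.20 (SE) in the other cells (adjusted p = 0.00609), where it stood at 219 CPM in knockout 4, against 10.3 and 7.82 CPM in controls 1 and 3. Ifitm1 rose by 2.26 in the Vcan positive and 1.91 in the other cells (adjusted p = 0.0209), Egln3 by 1.96 and 2.79 (adjusted p = 0.0209) and Slc2a1 by 1.37 and 1.65 (adjusted p = 0.0426). All 42 genes changed in the same direction in the other cells, and 11 of them passed there. Cells without Vcan that passed the gates not based on Vcan or the 4 markers were also compared, in unscaled CPM. In those, 30 of the 32 genes that rose lay above both controls, and all 10 that fell lay below both. In cells failing the MHC class II gate, 27 of the 32 lay above both controls and 2 below both. Of the 10, 6 lay below both there and 1 above both. In cells failing the Arg1 gate 31 of the 32 lay above both. Of the 10, 8 lay below both there and 2 above both. In cells failing the patrolling gate 31 of the 32 lay above both and 1 below both, and 9 of the 10 lay below both. No share over all genes is given for these sets. The genes named next passed in the Vcan positive cells and did not pass in the other kept cells. Hilpda had fold changes of 1.74 in the Vcan positive and 2.19 in the other cells (adjusted p = 0.0591), Cx3cr1 of -1.60 and -1.06 (adjusted p = 0.142) and Dgat2 of 1.62 and 0.69 (adjusted p = 0.558). For Cxcl10 they were -1.60 and -0.07 (adjusted p = 0.924), and in the other cells knockout 4 at 94.5 CPM lay between control 1 at 91.1 CPM and control 3 at 107 CPM.

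**Figure D5:**
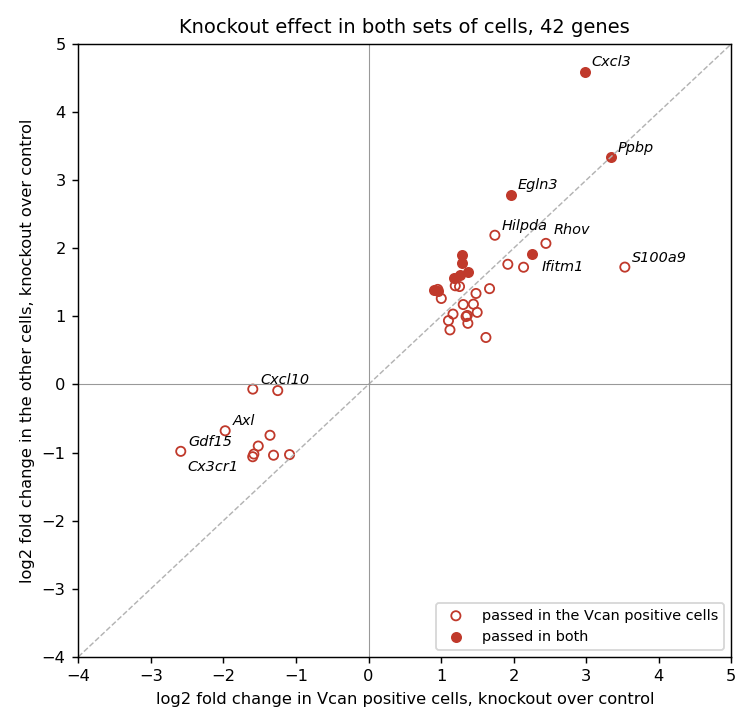
Log2 fold change of knockout 4 over the controls in Vcan positive cells (x axis) and in the other kept cells (y axis) for the 42 genes that passed in the Vcan positive cells. Filled points passed in both sets, and the dashed line marks equal changes. Both axes use the same 3 libraries. Cxcl3 lies above the line and S100a9, Cxcl10 and Gdf15 lie away from it on the side of a larger change in Vcan positive cells.

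A fit of all 6 sums tested whether the knockout effect differed between the Vcan positive cells and the others. It called 8 genes higher and 73 lower of 13869 (0.584%), of which 16 were among the 42. That fit pooled the spread over all genes (biological coefficient of variation 4.12%), so its p-values take no account of how far the controls disagree for a given gene and are too small where they do. DESeq2 called Cxcl3 and Fn1. Cxcl3 stood at 94.5 CPM in the Vcan positive and 215 CPM in the other cells of knockout 4, against 11.1 and 10.3 CPM in control 1 and 12.6 and 7.69 CPM in control 3. Its knockout effect was smaller in the Vcan positive cells by 1.76 ± 0.18 log2 units (edgeR adjusted p = 4.9e-19; DESeq2 adjusted p = 0.00521). Cells that failed the Arg1 gate were 1486 of the 3989 other cells of knockout 4, 519 of 3904 in control 1 and 312 of 6261 in control 3. They held 4943 of the 5630 Cxcl3 UMIs of the other cells of knockout 4, 207 of 395 in control 1 and 153 of 488 in control 3. Fn1, fibronectin, stood at 1588 and 1675 CPM in knockout 4, at 1563 and 1026 CPM in control 1 and at 1515 and 1006 CPM in control 3, a difference of -0.68 ± 0.08 (DESeq2 adjusted p = 0.0187). In these sums Fn1 was close in both sets of cells in knockout 4 and higher in the Vcan positive cells of both controls. Cells that failed the Arg1 gate held 27109 of the 43844 Fn1 UMIs of the other cells of knockout 4, 10516 of 39468 in control 1 and 6859 of 63812 in control 3. The part of these cells in both differences was not tested.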

How the data were processed

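Single-cell 3' RNA libraries (10x Genomics v3/v3.1 chemistry) were made from sorted liver monocytes. The authors deposited UMI counts per gene and barcode for each library, made with Cell Ranger 3.0.2 after bcl2fastq on GRCm38, per the file headers and the submitters' processing notes. The barcode filter and the annotation release are not given in the sources used here, and 99.8% of the 53802 feature IDs matched GENCODE M21. The files held 5152 (knockout 4), 4814 (control 1) and 8109 (control 3) barcodes, against 5229, 4860 and 8149 cells in the study's text.

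The counts of the Vcan positive cells were summed per library and tested with edgeR 4.0.16 (R 4.3.3; TMM, filterByExpr, quasi-likelihood test, two-sided, Benjamini-Hochberg adjustment over all genes tested, threshold 0.05). Every adjusted p comes from edgeR unless DESeq2 1.42.0 is named. The 2 control libraries gave the spread (1 residual degree of freedom, prior degrees of freedom 13.5, biological coefficient of variation 14.3%). The difference of effects between cell sets was an interaction over 6 sums with library as a block. Ratios over other cells used CPM with a pseudocount of 1 and genes at 50 CPM or more. The 18 genes of the rule were left out of tests. CPM values are TMM-scaled within the Vcan positive cells, except that ratios and levels set against other cells are scaled over the 6 sums, and marker sums and levels in classes of cells are unscaled. No doublet caller was run, and cells above 2 times their library's median UMI count were left out in an alternative. Intervals cover counting error only.

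On simulated counts the test in Vcan positive cells recovered 58.4% of 1-unit and 99.4% of 2-unit log2 changes with 5.17% false calls (9840 genes). The interaction recovered 94.4% and 100% with 3.67% false calls (13500 genes), at a spread set by the trend. The counts were drawn from the fitted models, with the knockout library varying like the controls, and only better expressed genes were changed. These rates thus do not show how the tests err where the controls disagree for a gene or the knockout library varies more.

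The cells, their rule and the 19 gene lists (340 genes, 312 tested) were chosen with earlier results of these data known. Genes named were the 20 largest of those that passed, the 3 lowest p of each list, and for other cells the 12 highest and 8 lowest ratios. A result among these is not reported here. Others were chosen after their values were seen, among them Pgam1, Bnip3, Eno1, Ccr2, Ccl2, Cxcl2, Cxcl9, Fpr1 and the genes shown by class of cell. Promoter windows are from RefSeq (GRCm38.p6). Alternatives changed the scaling, the tool, each filter, the rule's thresholds, the depth and the libraries used.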

Additional observations from a re-analysis of the deposited data

Results flagged for a closer look

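The interaction test called 81 of 13869 genes (0.584%) as differing in the knockout effect between Vcan positive and other kept cells. Listed here are 12 of those with the lowest p. In each of the 12 the knockout ratio of Vcan positive over other cells lay outside both control ratios. The values below are differences on the log2 scale, Vcan positive minus other cells. The fit behind them ignored how far the controls disagree for each gene. With DESeq2 only Cxcl3 (adjusted p = 0.00521) and Fn1 (adjusted p = 0.0187) passed. The other cells held 1486 cells that failed the Arg1 gate in knockout 4, 519 in control 1 and 312 in control 3, and their part in these differences was not tested.

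The alarmin genes were the 2 with a positive difference. A negative difference can mean a smaller rise in Vcan positive cells, as for Cxcl3, or a larger fall, as for Cxcl10. S100a9 differed by 2.33, with log2 ratios of Vcan positive over other cells of 1.61 in knockout 4, 0.53 in control 1 and -2.08 in control 3. S100a8 differed by 0.80, with ratios of 1.39, 1.08 and 0.09 in the same order. For both genes the controls lay farther from each other than control 1 lay from knockout 4.

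The chemokine genes ran the other way. Cxcl3 differed by -1.76, with ratios of -1.18 in knockout 4, 0.10 in control 1 and 0.65 in control 3. Cxcl10 differed by -1.41, with ratios of -1.07, 0.90 and -0.05, and Ccl9 by -0.59, with -0.31, 0.08 and 0.44. Ccl24 differed by -1.23, with ratios of -2.96 in knockout 4 and -2.88 in control 1 against -1.25 in control 3, so control 1 lay next to the knockout.

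Among genes of macrophages and matrix, Apoe differed by -0.72 (ratios of -1.22 in knockout 4, -0.75 in control 1 and -0.27 in control 3), C1qb by -0.74 (-1.78, -0.88 and -1.17) and C1qa by -0.88 (-2.08, -1.14 and -1.26). Fn1 differed by -0.68, with ratios of -0.08 in knockout 4, 0.61 in control 1 and 0.59 in control 3, the controls being close together. Spp1, osteopontin, differed by -0.71, with ratios of -1.17 in knockout 4, -1.06 in control 1 and 0.01 in control 3. The heat shock gene Hspa1a differed by -1.34, with ratios of -1.34, -0.21 and -0.03 in that order.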

How the results depend on the processing

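No paired analysis was possible because the knockout and control libraries share no replicate number. With 1 knockout library each call rests on its assumed spread, and the interaction p-values are too small where the controls disagree. Counts of genes higher and lower in Vcan positive cells of the knockout, 32 and 10 as reported, were 13 and 2 with DESeq2, 80 and 55 without a filter on low counts, 16 and 1 with 3 of 4 markers, 16 and 2 at 5% mitochondrial UMIs, 22 and 3 at 1000 genes, 17 and 1 without cells of high UMI count, 49 and 23 without S100a8 cells and 58 and 38 after thinning. Library totals, 3 Vcan UMIs and robust moderation, which was chosen after seeing the data, gave counts within 1.5 times of these. The 8 genes past the threshold under every setting with a test were Adam8, Cd9, Cxcl3, Hilpda, Ifitm1, Igfbp6, Slc2a1 and Cx3cr1.

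Counts of the interaction, 8 higher and 73 lower, were 15 and 63 with library totals, 0 and 2 with DESeq2 (68 at an unadjusted p under 0.05), 7 and 48 without a filter, 6 and 33 with 3 Vcan UMIs, 6 and 39 with 3 of 4 markers, 18 and 52 without cells of high UMI count, 1 and 10 without S100a8 cells, and 0 and 11 after thinning (568 unadjusted). Genes over 2-fold higher in Vcan positive cells in every library numbered 0 to 5, and lower 10 to 16, when either control was left out. The knockout minus control share of members of the set ran from -2.7 to 0.54 percentage points over the filters and from -5.45 to 5.37 without either control. Of 1020 recomputed fold changes 160 lost and 32 gained the threshold, 47 without a test moved beyond the spread, and 0 turned their direction when called. The causes were not tested.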

Other observations

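In Vcan positive cells with 0 or 1 S100a8 UMIs, the following genes passed the test between knockout and control although they had not passed in the whole set, and they were chosen after their values were seen. Hmox1 stood at 2706 CPM in knockout 4, against 942 CPM in control 1 and 1453 CPM in control 3 (1.17 ± 0.21 log2, edgeR adjusted p = 0.00287). Spp1 rose by 1.23, at 754 CPM in knockout 4, against 206 and 421 CPM in controls 1 and 3. Cd14 rose by 1.07 and Cxcl2 by 0.91, and Ednrb, which encodes an endothelin receptor, rose by 2.40. Of the genes that fell there, Fos stood at 1089 CPM in knockout 4, against 1942 and 2558 CPM (-1.05 ± 0.22, adjusted p = 0.0118), and Lyz2 at 7795 CPM, against 18950 and 13330 CPM (-1.05 ± 0.23, adjusted p = 0.0179). In each of these genes the knockout library lay outside both controls, which the choice by the test largely sets. Whether these genes differ in their response between cells with and without S100a8 was not tested.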
